A study of Homo sapiens with 6 samples.

Results

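The insulin-like growth factor (IGF) family was examined here through 10 genes: the binding proteins IGFBP2, IGFBP3, IGFBP4, IGFBP5, IGFBP6 and IGFBP7, the ligand IGF2, and the receptors IGF1R, IGF2R and INSR. They were found by gene symbol in the platform annotation, which gave 14 of the 48803 probes on the array and 10 of the 18852 named genes. The set was selected on the tRA/cAMP against CNTRL intensities themselves, already known to hold IGFBP3 among the largest increases. Their differences are therefore given as a description, without p-values.

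The samples were 3 arrays of HEK293 cells grown for 3 days in complete medium to which N6,2'-O-dibutyryl-cAMP, a membrane-permeant cAMP analog, and all-trans retinoic acid had been added, called tRA/cAMP, and 3 arrays of HEK293 cells grown for 3 days in complete medium alone, called CNTRL. HEK293 is an established human line of embryonic kidney origin, so each value describes 1 cultured line. Both agents were given together and their separate effects were not measured; the doses are not given in the sources used here. Biotin-labelled cRNA made from total RNA was read on Illumina bead arrays, where each probe reports an intensity and a detection p-value against the negative controls of the same array.

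IGF1 and IGF2 are secreted growth factors that signal through IGF1R, a receptor tyrosine kinase related to the insulin receptor INSR. IGF2R, the cation-independent mannose 6-phosphate receptor, takes up IGF2 and carries lysosomal enzymes, and it does not signal as a kinase. The binding proteins hold the growth factors outside the cell with high affinity, extend their life and limit or deliver them to the receptors; IGFBP6 prefers IGF2, and IGFBP7 is a relative that binds IGFs weakly. Retinoic acid has been described to raise IGFBP3 and IGFBP6 in several cultured tumour lines.

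The sequences before the starts of 3 binding protein genes are shown: IGFBP3 and IGFBP6, which were called higher, and IGFBP5, whose 2 probes both read lower. Each is the 250 bases before the RefSeq start (GRCh38.p14), 5′ to 3′ on the strand of the gene. IGFBP3 lies at chr7:45921273-45921522 on the minus strand, IGFBP6 at chr12:53097417-53097666 on the plus strand and IGFBP5 at chr2:216695550-216695799 on the minus strand. Capitals mark GC boxes, the only motif of the search that these 3 windows held.
IGFBP3: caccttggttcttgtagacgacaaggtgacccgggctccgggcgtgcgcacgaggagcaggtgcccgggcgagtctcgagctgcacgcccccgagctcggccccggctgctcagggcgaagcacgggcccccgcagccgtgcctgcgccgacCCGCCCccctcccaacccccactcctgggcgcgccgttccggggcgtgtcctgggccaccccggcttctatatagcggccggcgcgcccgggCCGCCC
IGFBP6: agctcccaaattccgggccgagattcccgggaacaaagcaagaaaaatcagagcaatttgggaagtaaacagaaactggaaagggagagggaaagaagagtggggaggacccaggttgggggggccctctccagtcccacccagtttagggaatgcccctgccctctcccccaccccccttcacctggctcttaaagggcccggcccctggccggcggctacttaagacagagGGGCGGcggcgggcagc
IGFBP5: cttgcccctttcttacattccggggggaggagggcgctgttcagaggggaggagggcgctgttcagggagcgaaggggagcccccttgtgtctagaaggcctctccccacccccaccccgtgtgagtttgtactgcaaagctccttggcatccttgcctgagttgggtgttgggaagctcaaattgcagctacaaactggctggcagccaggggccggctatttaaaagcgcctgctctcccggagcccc

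The letters searched on both strands were AGGTCA (the half-site of nuclear receptors such as the retinoic acid receptors), TGACGTCA (the cAMP response element), TGACG (the shorter form, which also lies inside the full element), GGGCGG (the GC box) and TATAAA (the TATA box). Of 35114 RefSeq promoter windows of the same length, 12.1% held AGGTCA, 1.65% TGACGTCA, 21.2% TGACG, 42.6% GGGCGG and 10.7% TATAAA. The IGFBP3 window held 2 GC boxes, the IGFBP6 window held 1 and the IGFBP5 window held 0. IGFBP5 was the exception among the 8 members with a promoter entry, since 7 of the 8 windows held a GC box, among them those of IGFBP2, whose values were lower, and of IGF1R, IGF2R and INSR, whose values overlapped; IGF2R had the most, 6. AGGTCA was found in the window of IGFBP2 alone among the 8 (for IGFBP2, which has 3 starts, the outermost was used), TGACG in that of IGF2R and TATAAA in that of IGFBP4. These are matches of letters in a short window and say nothing about binding.

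Across the 6 arrays, 14792 to 16103 probes were detected (detection p under 0.01), which is 30.3% to 33.0% of all probes, and median raw intensities lay between 229 and 271. The correlation between arrays was 0.990 to 0.991 within a group and 0.987 to 0.989 across groups. CYP26A1, a hydroxylase of retinoic acid, and NR4A2, an orphan nuclear receptor, were higher in tRA/cAMP, by 5.66 and 1.22 on the log2 scale (limma, adjusted p = 5.5e-09 and 5.6e-04). Of 8 markers of the kidney lineage or of the line with a probe, EYA1, GATA3, LHX1 and WT1 were detected on all arrays. IRS4, PAX2, PAX8 and SALL1 were detected on none. Of the 4 detected markers, GATA3 rose by 0.94 and EYA1 fell by 1.048 on the log2 scale (limma, adjusted p = 0.0156 and 0.0085), and their part in the members' differences was not tested. In the file headers the names of the 6 arrays share 1 number and end in the letters A to F, with CNTRL first. What the number and letters stand for is not stated. Any effect of that order cannot be told apart from the treatment. Nothing in the labels assigns the replicates to separate cultures, and the spread between arrays may be technical. With 3 arrays in a group, the precision of every value is limited by their number.

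IGFBP3 and IGFBP6 were higher with tRA/cAMP. IGFBP2 and IGFBP5 had lower normalized values on all tRA/cAMP arrays, by a smaller amount and without passing the test's threshold. The values of the other 6 genes overlapped between the groups. Of the 10 genes, 7 had a probe detected on all 3 arrays of at least 1 group and entered the test over 9944 genes. Of these 7, 2 were called higher (IGFBP3 and IGFBP6) and 0 lower by limma (threshold 0.05 on the adjusted p), and 4 passed 0.05 before adjustment. Over all genes tested, 1.11% were called higher, 1.46% were called lower and 14.2% passed 0.05 before adjustment. IGFBP3 entered the test through the tRA/cAMP arrays alone. The arrays of the 2 groups did not overlap in 4 of the 7 genes, 2 of them higher and 2 lower, against 18.9% of all genes. Since this comparison chose the family, nothing is read from these shares. The median log2 difference was 0.04 over the 7 genes and 0.00 over all genes.

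**Figure D1:**
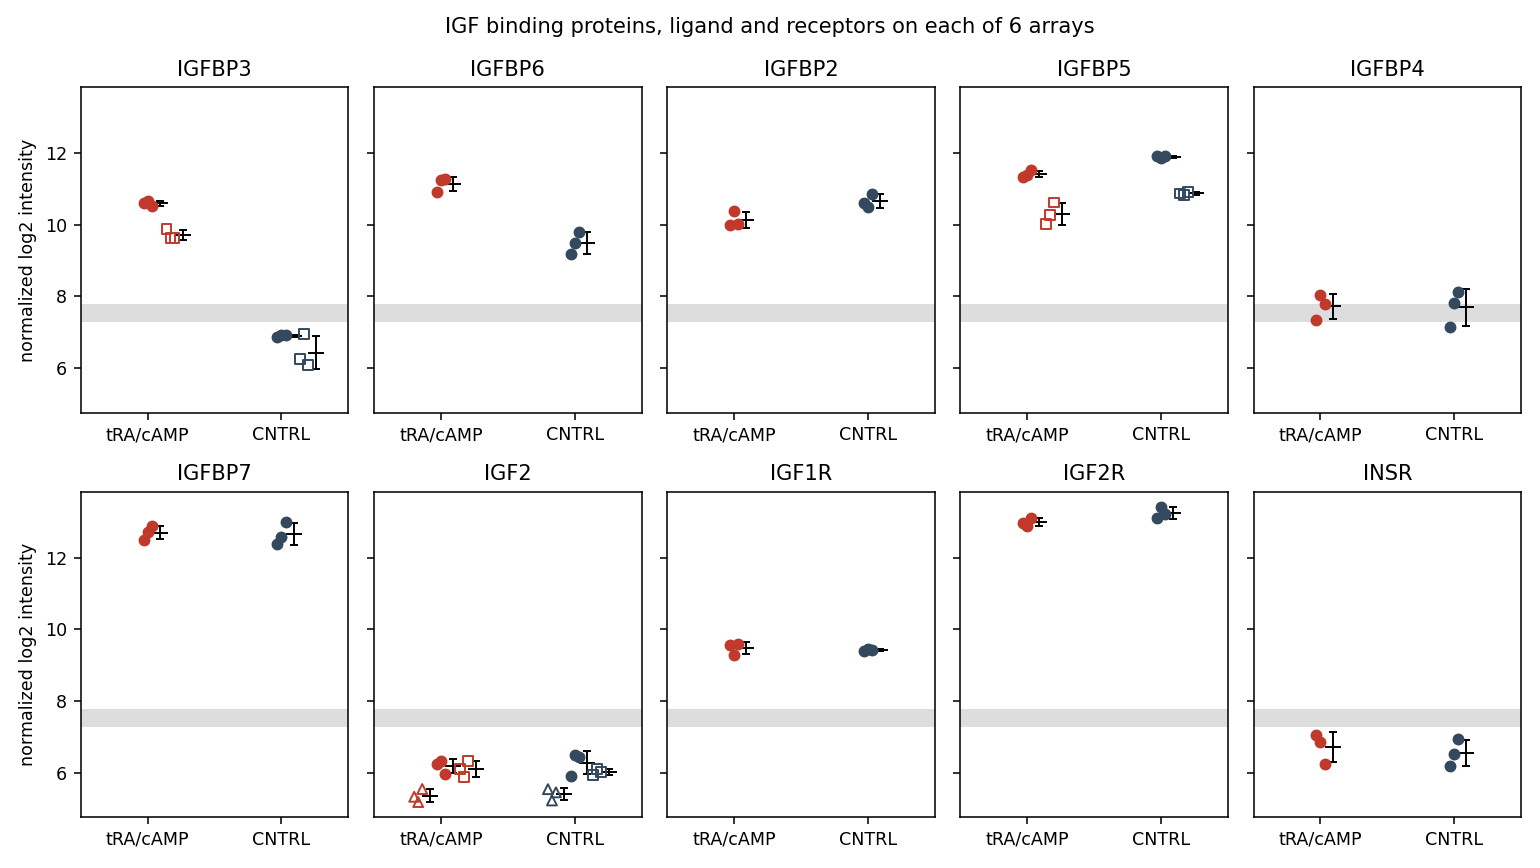
Normalized log2 intensity (y axis) of every probe of the 10 genes on the 3 tRA/cAMP arrays (red, left) and the 3 CNTRL arrays (blue, right), with the mean and SD of each probe beside its points; filled circles are the brightest probe of a gene, open squares and triangles its other probes. The grey band spans the lowest detected signal of the arrays, 7.32 to 7.76, and the IGFBP3 points lie above it in tRA/cAMP and below it in CNTRL.

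IGFBP3, the main carrier of IGFs in blood, had raw intensities of 1771, 1959 and 1390 on the tRA/cAMP arrays, against 348, 315 and 323 on the CNTRL arrays. On the normalized log2 scale these were 10.60, 10.67 and 10.52 in tRA/cAMP and 6.86, 6.93 and 6.91 in CNTRL. All 3 tRA/cAMP arrays stood far above all 3 CNTRL arrays, and the arrays of each group lay close together. The means were 10.60 ± 0.08 in tRA/cAMP and 6.90 ± 0.03 in CNTRL (SD, n = 3 each). IGFBP3 was detected on 3 of 3 tRA/cAMP arrays and on 0 of 3 CNTRL arrays, where its detection p lay between 0.0250 and 0.0343, so the size of the increase is a lower bound. Set against the lowest detected signal of the CNTRL arrays, it was at least 8.60-fold higher, and at least 4.58-fold higher with the array background left in.

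The second IGFBP3 probe, annotated to another transcript (NM_001013398), gave 9.88, 9.63 and 9.63 on the log2 scale in tRA/cAMP, against 6.24, 6.96 and 6.08 in CNTRL. Its groups were also apart, with the wider spread in CNTRL, where it was not detected on any array. It was at least 4.66-fold higher. Both probes gave the same direction, with CNTRL signals under the detection limit.

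IGFBP6, the binding protein with a preference for IGF2, was detected on every array. Its log2 intensities were 10.92, 11.24 and 11.28 in tRA/cAMP, against 9.20, 9.50 and 9.81 in CNTRL. The lowest tRA/cAMP array lay above the highest CNTRL array, by more than the whole spread of either group. The means were 11.15 ± 0.20 in tRA/cAMP and 9.50 ± 0.31 in CNTRL (SD, n = 3 each), which is a 3.13-fold increase (log2 difference 1.64, standard error 0.21). In the raw files the same probe read 2148, 2783 and 2230 in tRA/cAMP and 889, 880 and 1123 in CNTRL, with no overlap. With the background left in, the increase was 2.66-fold.

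IGFBP5, a binding protein that also adheres to extracellular matrix, was detected on every array with both of its probes. The brighter probe had log2 intensities of 11.33, 11.40 and 11.52 in tRA/cAMP, against 11.91, 11.87 and 11.93 in CNTRL. All tRA/cAMP arrays lay below all CNTRL arrays. The means were 11.42 ± 0.09 in tRA/cAMP and 11.90 ± 0.03 in CNTRL (SD, n = 3 each), a log2 difference of -0.49 (standard error 0.06). The other probe had 10.02, 10.27 and 10.62 in tRA/cAMP and 10.87, 10.84 and 10.92 in CNTRL, and its difference was -0.57 (standard error 0.18). The 2 probes gave the same direction and a similar size. IGFBP5 did not pass the threshold in the fit reported here but did in 3 of 17 alternatives. These were a robust fit with a variance trend, the deposited normalized table, and values left without background correction. The last 2 gave nearly the same difference, -0.457 and -0.458, and are not separate support. This comparison chose the family, so these calls are a description.

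IGFBP2, an abundant binding protein of fetal tissues, had log2 intensities of 10.00, 10.39 and 10.01 in tRA/cAMP, against 10.61, 10.50 and 10.87 in CNTRL. The highest tRA/cAMP array came close to the lowest CNTRL array but stayed below it. In the raw intensities the groups overlapped, with 1240, 1632 and 1021 in tRA/cAMP and 2000, 1570 and 2095 in CNTRL. The log2 difference was -0.53 (standard error 0.17), from 10.13 ± 0.22 in tRA/cAMP and 10.66 ± 0.19 in CNTRL (SD, n = 3 each), and did not pass the threshold.

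Of 8 fibroblast markers tested in the same samples, S100A4, LUM, COL3A1 and TAGLN fell and 0 rose (limma, adjusted over all genes). The shares over all genes were 1.46% called lower, 1.11% called higher and 14.2% passing 0.05 before adjustment. LUM was detected on 1 and TAGLN on 0 of the 3 tRA/cAMP arrays, so both entered the test through the CNTRL arrays alone. The summed intensity of the 14 markers with a probe was 46063 to 51516 in tRA/cAMP and 67836 to 76397 in CNTRL, and COL1A2, DCN, THY1, PDGFRB, FAP and POSTN were detected on no array. VIM and ACTA2 made up 84.7% to 91.7% of that sum, and neither was called (log2 differences -0.50 and -0.34; limma, adjusted p = 0.0565 and 0.242), while COL1A1 and PDGFRA overlapped between the groups. The endothelial gene VWF fell too, the only 1 of 5 endothelial markers that was tested. VWF was detected on 1 tRA/cAMP array and entered the test through the CNTRL arrays alone. CDH5, KDR and TEK were detected on no array, and PECAM1 on too few to be tested. Limma called 0 of 3 epithelial and 0 of 2 blood cell markers tested (1 of each passed 0.05 before adjustment). All samples were of 1 cultured line, so these markers are read as genes of that line and not as counts of other cell types. Their part in the lower IGFBP2 and IGFBP5 values was not tested. In bulk RNA, fewer cells expressing a gene and less of its RNA per cell cannot be told apart. The 5 adipocyte and liver markers, from tissues that secrete IGF proteins, included ALB, APOA1, ADIPOQ and FABP4, detected on no array.

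IGFBP7 was bright in both groups, with log2 intensities of 12.51, 12.73 and 12.87 in tRA/cAMP against 12.39, 12.59 and 13.004 in CNTRL. The groups overlapped and the difference was 0.04 (standard error 0.21). IGFBP4, which restrains IGF action until it is cleaved by the protease PAPPA, sat at the detection limit. It was detected on 2 of 3 arrays in each group, with log2 intensities of 7.35, 8.05 and 7.78 in tRA/cAMP and 7.13, 7.82 and 8.13 in CNTRL, and was not tested. Its difference of 0.03 had a standard error of 0.36, so a change of moderate size was not detectable with these arrays.

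**Figure D2:**
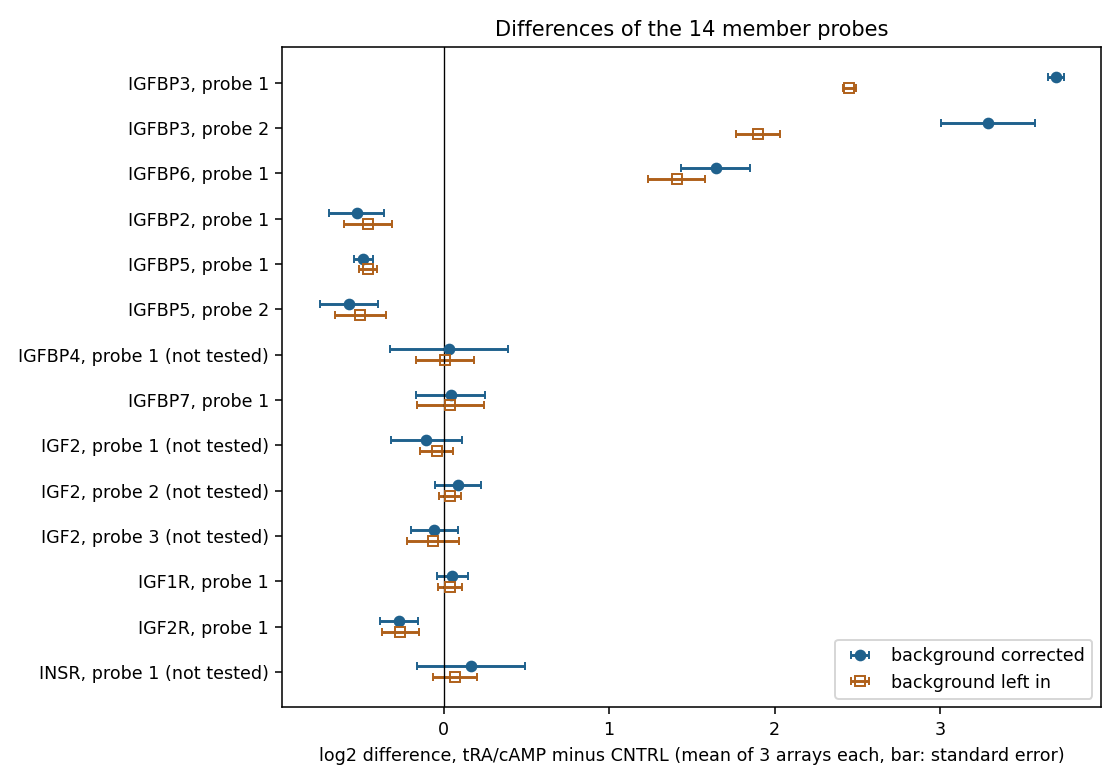
Log2 difference, tRA/cAMP minus CNTRL (x axis), of each of the 14 probes, as the difference of the means of 3 arrays each with its standard error; circles are background-corrected values and squares values with the background left in. Both IGFBP3 probes and the IGFBP6 probe lie right of 0, the IGFBP2 probe and both IGFBP5 probes lie left of it, and leaving the background in shortens the IGFBP3 differences. The IGFBP3 points are set against CNTRL signals under the detection limit and are no measured sizes.

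The ligand IGF2 was not detected on any array with any of its 3 probes. The brightest of them gave log2 intensities of 6.23, 6.34 and 5.97 in tRA/cAMP and 5.91, 6.49 and 6.44 in CNTRL, all under the lowest detected signal of the arrays. The other ligands with a probe, IGF1 and INS, were also not detected on any array, so no ligand level could be compared between the groups.

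Among the receptors, IGF1R was detected on all arrays at log2 intensities of 9.56, 9.30 and 9.59 in tRA/cAMP against 9.41, 9.45 and 9.43 in CNTRL. The groups overlapped and the difference was 0.05 (standard error 0.09). IGF2R was bright throughout, with 12.98, 12.88 and 13.11 in tRA/cAMP against 13.11, 13.43 and 13.24 in CNTRL. The highest tRA/cAMP value reached the lowest CNTRL value, and the difference was -0.27 (standard error 0.11), short of the threshold. INSR was not detected on any array (7.06, 6.85 and 6.25 in tRA/cAMP, 6.19, 6.52 and 6.94 in CNTRL) and was not tested.

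Further genes of the IGF axis were set beside the members in 5 lists holding 116 genes, of which 108 had a named probe and 75 were tested. Of the 75, H19 rose and GRB14 and CTCFL fell (limma, adjusted over all genes), while 10 passed 0.05 before adjustment. CTCFL entered the test through the CNTRL arrays alone. The shares over all genes were again 1.11% called higher, 1.46% called lower and 14.2% passing 0.05 before adjustment. The median log2 difference of the 75 genes was -0.03.

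Of the list of other ligands and binding proteins, only 2 genes were tested, and neither encodes an IGF or an IGF binding protein. H19, the imprinted noncoding RNA next to IGF2 on the chromosome, had log2 intensities of 11.01, 10.61 and 10.73 in tRA/cAMP, against 9.44, 9.65 and 10.33 in CNTRL. The groups were apart, with 1 CNTRL array close to the tRA/cAMP values. H19 rose 1.97-fold (log2 difference 0.98, standard error 0.21; limma, adjusted p = 0.041), a call lost in 10 of 17 alternatives, among them the fit with the replicate number as a block (adjusted p = 0.069). RLN2, which encodes relaxin, differed by 0.29 (standard error 0.14; limma, adjusted p = 0.39). IGFBP1, IGFBPL1 and INSRR were detected on no array, and IGFALS, the acid-labile subunit that joins IGFBP3 and IGF in blood, on 1 CNTRL array.

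Among 6 tested CCN and other proteins that carry an IGFBP-like domain, limma called 0, and 0 passed 0.05 before adjustment. CCN1 differed by -0.35, CCN2 by 0.25 and HTRA1, a secreted protease, by -0.09 on the log2 scale. Among 16 tested proteases and partners of binding proteins, limma called 0, and 3 passed 0.05 before adjustment, against 14.2% of all genes. STC1, a secreted inhibitor of PAPPA, had 10.32, 10.51 and 10.24 in tRA/cAMP against 9.33, 9.42 and 10.02 in CNTRL (log2 difference 0.77, standard error 0.18; limma, adjusted p = 0.057). It passed the threshold in 4 of 17 alternatives. CAV1, the main protein of caveolae, differed by -0.42 and PLAT, a plasminogen activator, by 0.36. PAPPA and PAPPA2, the proteases that cleave IGFBP4 and IGFBP5, were detected on no array.

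Of 31 tested adaptors and PI3K-AKT signalling genes, 0 rose and 1 fell. GRB14, an adaptor that inhibits the insulin receptor kinase, had log2 intensities of 8.93, 8.88 and 8.76 in tRA/cAMP against 9.90, 9.58 and 9.86 in CNTRL. Its groups were well apart, and it fell 1.90-fold (log2 difference -0.92, standard error 0.13; limma, adjusted p = 0.0035). A second detected GRB14 probe differed by -0.44 with overlapping groups. The related adaptor GRB10 differed by -0.40 (standard error 0.12; limma, adjusted p = 0.15), with its other detected probe at -0.68, and passed the threshold when the probes were averaged. GRB2 and RPTOR, an adaptor and a subunit of the mTOR complex, differed by 0.30 and 0.34. Looked at after the values were seen, the receptor substrates IRS1 and IRS2 differed by -0.28 and -0.03, and neither passed the threshold.

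Of 20 tested regulators of IGF2 and of the receptor genes, 0 rose and CTCFL, the testis paralog of the insulator protein CTCF, fell. CTCFL was not detected on any tRA/cAMP array and was at least 1.17-fold lower (limma, adjusted p = 1.8e-05). It entered the test through the CNTRL arrays alone, and its p rests on tRA/cAMP signals under the detection limit. Requiring detection on all 6 arrays removes it. IGF2BP2, which binds IGF2 mRNA, had 12.50, 12.44 and 12.48 in tRA/cAMP against 12.82, 12.68 and 12.80 in CNTRL. Its groups did not overlap, but the difference of -0.29 (standard error 0.11) did not pass the threshold (limma, adjusted p = 0.25). GGA2, a sorting adaptor of mannose 6-phosphate receptors, and the transcription factor SP1 differed by 0.23 and 0.24.

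**Figure D3:**
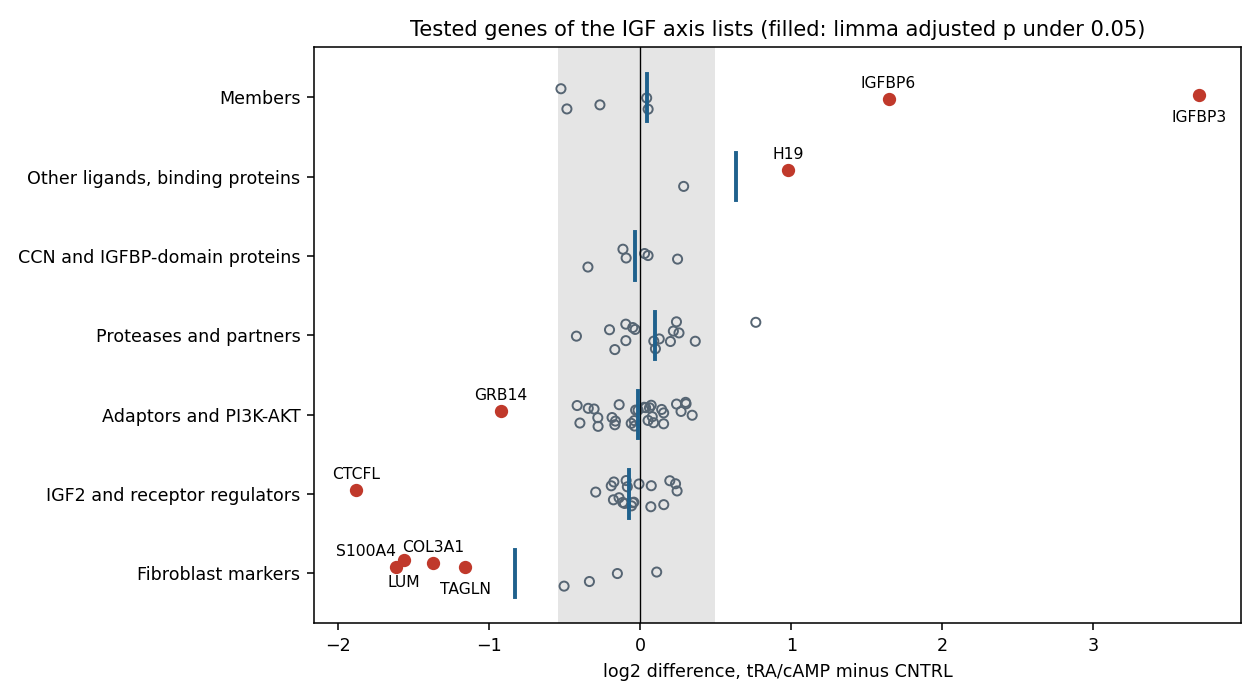
Log2 difference, tRA/cAMP minus CNTRL (x axis), of the tested genes of the family, of the 5 IGF axis lists and of the fibroblast markers; each point is 1 gene, filled and named where limma called it, and the blue bar is the median of the list. The grey band holds the middle 95% of all tested genes, from -0.54 to 0.49, and most listed genes lie inside it.

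Some of the genes lie next to relatives on the chromosomes in RefSeq (GRCh38.p14). IGFBP2 and IGFBP5 are direct neighbours on chromosome 2, and IGFBP3 lies beside IGFBP1 on chromosome 7. A tensin gene, encoding an adaptor of focal adhesions, lies within 2 protein-coding genes of 4 binding protein genes: TNS3 by IGFBP3, TNS4 by IGFBP4, TNS1 by IGFBP5 and TNS2 by IGFBP6. TNS3 differed by -0.43 (standard error 0.14; limma, adjusted p = 0.18), opposite in sign to IGFBP3, and TNS1, TNS2 and TNS4 were detected on too few arrays to be tested. Taking 2 protein-coding genes on each side of every member, 14 neighbours that are no members were tested. Limma called 0 of them, and 2 passed 0.05 before adjustment, against 14.2% of all genes, so nothing is read from this count. The neighbours of IGFBP6, SPRYD3 and CSAD, differed by 0.32 and 0.24 (limma, adjusted p = 0.35 and 0.42).

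The genes whose levels over the 6 arrays were most like those of IGFBP3 were CYP26A1, CGA, HOXB2, CYP26B1 and NRG4, with Pearson correlations of 0.996 to 0.998. With 3 arrays in each group this measure mainly ranks genes by how cleanly the groups part, and 247 genes reached a correlation over 0.9. CYP26A1 and CYP26B1 are hydroxylases of retinoic acid, CGA is the alpha subunit of glycoprotein hormones, HOXB2 is a homeobox gene and NRG4 is a ligand of ERBB4.

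**Figure D4:**
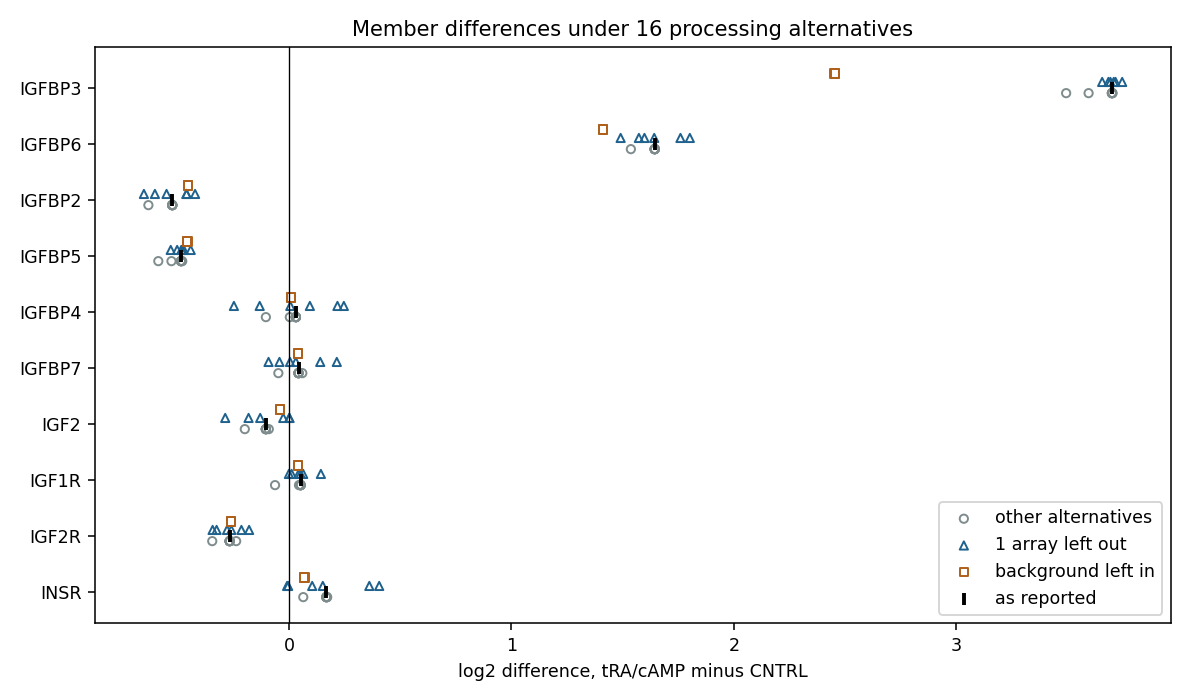
Log2 difference, tRA/cAMP minus CNTRL (x axis), of each of the 10 genes as reported (black bar) and under 16 processing alternatives (open symbols). IGFBP3, set against undetected CNTRL signals and so no measured size, stays above 0, IGFBP6 lies between 1.41 and 1.80, IGFBP2 and IGFBP5 stay below 0, and IGFBP4, IGFBP7, IGF2, IGF1R and INSR fall on both sides of 0.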

How the data were processed

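The deposited intensity values are average bead signals per probe and array from BeadStudio, per the submitters' processing notes and file headers (version and genome build not given in the sources used here), with no normalization between arrays. The deposited detection p-value ranks a probe among the negative controls, per the file headers. A second deposited intensity table, quantile normalized judging by its values, served as an alternative. Groups come from the sample titles.

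In R 4.3.3, neqc (limma 3.58.1) corrected the background (normexp, offset 16), quantile normalized the arrays and took log2. Testing required a detection p under 0.01 on every array of either group, which 14923 probes met; the tested probe of highest mean stood for each of 9944 genes. lmFit and eBayes over the 6 arrays gave log2 differences, with Benjamini-Hochberg adjustment over all genes. For members the standard error is that of the difference of group means; for other genes it is limma's moderated one. Where a whole group was below detection, the fold is a bound: the dim arrays entered it at their lowest detected signal, or at the probe's own signal if that was higher.

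The members and lists were chosen with earlier results of these data known. Named from the IGF axis lists are the called genes of each list and the 3 others with the smallest p. Some list genes detected on few or no arrays are named too, and IRS1 and IRS2 were added after the values were seen. Others named are CYP26A1 and NR4A2, the 5 genes most like IGFBP3, cell type markers, chromosome neighbours and other IGF-related genes. The functions were tested on simulated data. Probes with 1 gene name in the platform annotation numbered 28098; the other 20705 are unnamed here. Promoter sequences are from RefSeq; protein sequences were not used here. Alternatives covered background, normalization, filter, probes, variance model, replicate block and each array left out; 1, a detection limit of 0.05, was added after seeing the data.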

Additional observations from a re-analysis of the deposited data

How the results depend on the processing

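IGFBP3 and IGFBP6 kept their sign in 17 of 17 alternatives, as did IGFBP2, IGFBP5 and IGF2R. This comparison chose the members, so their calls under the alternatives are a description. Detection on all 6 arrays removes IGFBP3, which entered through the tRA/cAMP arrays alone, and leaves 1 member called higher. IGFBP5 was the 1 member called lower with a robust, trended variance, in the deposited normalized table, and without background correction. With each array left out in turn, 2 members were called higher and 0 lower. Without normalization between arrays the median of all genes shifted by -0.10 on the log2 scale; relative to it IGFBP6 differed by 1.64, IGFBP2 by -0.53 and IGFBP5 by -0.49. In that setting 43 genes were called higher (26.4% of calls, against 43.1% of calls as reported), against 110 as reported. With no filter on dim probes 53 genes were higher and 78 lower, against 110 and 145, and with detection on all 6 arrays 89 were lower. Leaving out single arrays gave 52 to 83 genes higher and 85 to 113 lower, in fits with fewer arrays; the counts moved by over 1.5 times without CNTRL replicate 1 or 2 or tRA/cAMP replicate 1 or 2.

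In the IGF axis lists, 2 genes (H19 and STC1) were called higher under those same 3 alternatives, and 0 without normalization, with no filter, with detection on at least 3 of 6 arrays, with the replicate block and with a detection limit of 0.05. Leaving out single arrays gave 0 to 2 higher and 2 to 3 lower. Detection on all 6 arrays left 1 lower (GRB14). H19 had an adjusted p of 0.0015 to 0.14 over its alternatives. It missed the threshold without any single array but CNTRL replicate 3, and STC1 passed it without that array. Of 271 values of 16 named axis genes, 256 kept their side of the threshold and 0 changed sign. The replicate numbers did not pair the arrays (correlations of same-numbered deviations 0.055, -0.047 and -0.036); the replicate block changed no member call. Signals under the detection limit leave the sizes for IGFBP3, IGFBP4, IGF2 and INSR open to the background correction.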

Other observations

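Among probes named for other IGF-related genes, IGFLR1, a receptor of IGF-like proteins, was detected on all 6 arrays and differed by 0.24 on the log2 scale (limma, adjusted p = 0.52). The probes of INS-IGF2, IGFBP-AS1, IGFL1, IGFL2 and IGFL4 were detected on no array, and that of IGFL3 on 1 tRA/cAMP array and 2 CNTRL arrays.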
